A study of Mus musculus with 9 samples.

Results

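The subcortical maternal complex is an assembly of proteins stored beneath the membrane of the mammalian oocyte and inherited by the early embryo. The 8 genes described here are Nlrp5, Ooep, Tle6, Khdc3, Padi6, Zbed3, Nlrp2 and Nlrp4f, taken by symbol from the 53819 gene rows of each count file, where all 8 were found. Nlrp5 (MATER), Ooep (FLOPED), Tle6 and Khdc3 (FILIA) are the long-known mouse members, Padi6 and Zbed3 are further proteins of the same layer, and Nlrp2 and Nlrp4f belong with Nlrp5 to a family of proteins with a NACHT domain and leucine-rich repeats. They were read in mouse morulae, the stage at which the blastomeres compact before a cavity forms. The embryos were of strain C57BL/6J and were made by in vitro fertilization with the Nakagata protocol in CARD media. The sires were controls (3 libraries), had the 6% EtOH treatment (3 libraries) or had the 10% EtOH treatment (3 libraries), and the comparison asks whether the father's alcohol intake before conception goes with other gene expression in his embryos. No altered allele is named for any group. How many embryos or sires went into a library, and the age of the sires, are not given in the sources used here.

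These genes are transcribed in the growing oocyte, where the transcription factor FIGLA is known to drive other oocyte genes such as those of the zona pellucida, and most maternal messages are cleared when the embryonic genome starts to be read. Mouse embryos whose mothers lack Nlrp5, Ooep, Tle6 or Padi6 arrest during early cleavage, and the complex is tied to organelle placement, spindle assembly, translation and the cytoplasmic lattices of the egg. Khdc3 is also known from mouse embryonic stem cells, where its protein takes part in the DNA damage response.

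FIGLA and related helix-loop-helix factors bind E-boxes, written CANNTG, which read alike on both strands. The promoters of 3 members are shown because their genes carry the results below, namely Khdc3 as the most abundant transcript, Nlrp5 as the member with the largest fold change between the ethanol groups and Padi6 as the next most abundant transcript. They are the bases before the RefSeq start of the gene, 5′ to 3′ on the gene's strand, with E-box letters in capitals. The RefSeq table is of build GRCm38.p6, an older build than the GRCm39 used for the counts. For Khdc3 the stretch is chr9:73102205-73102397 on the plus strand, 193 bases of the 250-base window, with the 57 bases that lie in an exon left out. For Nlrp5 it is the first of 2 windows, chr7:23385639-23385888 on the plus strand, and for Padi6 it is chr4:140742644-140742893 on the minus strand.
Khdc3: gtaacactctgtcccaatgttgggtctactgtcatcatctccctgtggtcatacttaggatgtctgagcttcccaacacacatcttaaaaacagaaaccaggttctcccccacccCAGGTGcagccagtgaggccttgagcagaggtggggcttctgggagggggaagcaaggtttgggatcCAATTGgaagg
Nlrp5: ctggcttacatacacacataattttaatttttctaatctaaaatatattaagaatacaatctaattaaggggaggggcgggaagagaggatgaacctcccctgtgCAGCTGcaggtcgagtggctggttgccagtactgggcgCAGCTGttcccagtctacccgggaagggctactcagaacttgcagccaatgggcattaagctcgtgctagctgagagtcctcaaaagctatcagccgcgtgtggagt
Padi6: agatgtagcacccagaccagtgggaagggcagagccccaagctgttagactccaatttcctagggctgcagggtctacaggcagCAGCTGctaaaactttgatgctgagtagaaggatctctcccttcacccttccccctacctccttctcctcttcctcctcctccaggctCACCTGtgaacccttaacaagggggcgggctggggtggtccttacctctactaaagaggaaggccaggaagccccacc
Each printed stretch held 2 E-box matches, and the whole Khdc3 window held 5. Of 32851 mouse windows of 250 bases in the table, 66.2% held at least 1 match and 1.15% held 5 or more, with overlapping matches counted separately. The cutoff of 5 was taken from Khdc3, the highest of 12 windows of members, so the 1.15% is no test of that window. The other windows of members held 0 to 4 matches. A match describes the letters only. Figla, named here for its motif, had 0 counts in all 9 libraries.

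Library totals ran from 6263465 to 27619281 counts. In 4 libraries (control 2, 6% ethanol 1, 10% ethanol 1 and 10% ethanol 2) the column of counts had a long header that names RNA STAR, and in the other 5 it had a short one. What the header form stands for is not known. With it, 13 genes differed at an adjusted p under 0.05 in edgeR's quasi-likelihood test with group as a term. Values within each form are therefore also given for part of the comparisons of members that could be fitted there. All 15 morula and early lineage markers were measured above the filter on low counts, with summed levels of 2155 to 2725 CPM (reads scaled to a library of 1000000) in control, 2018 to 2685 CPM in 6% ethanol and 1446 to 3105 CPM in 10% ethanol libraries. Gata6 and Cdh1 were the highest of them, at 536 to 1459 CPM and 237 to 453 CPM over the 9 libraries. At most 1 of the 15 was at 0 counts in any ethanol library, and 0 were in any control library. The 10 cumulus and granulosa markers summed to at most 2.63 CPM in any library, the 7 sperm markers to at most 3.51 CPM and the 6 blood markers to at most 0.253 CPM, and 5, 5 and 3 of these markers were at 0 in all 9 libraries. These are bulk samples, in which fewer cells of a type and less RNA per cell cannot be told apart.

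Khdc3 was by far the most abundant of the 8 transcripts and made up 87.0% to 97.7% of their summed counts in every library. Per kilobase of exon, it averaged 227 CPM per kb over the 9 libraries, with a range of 122 to 400 CPM per kb. Padi6 followed at 4.79 CPM per kb (range 1.02 to 18.6) and Ooep at 2.03 CPM per kb (range 0.217 to 9.67). The lowest Khdc3 level was above the highest Padi6 level, and from Padi6 downward the ranges of neighbours in the order overlapped. Nlrp4f averaged 1.03 CPM per kb (range 0 to 6.72), Nlrp5 0.743 (range 0 to 2.93), Zbed3 0.740 (range 0 to 2.46) and Tle6 0.231 (range 0 to 0.613). Nlrp2 was at the edge of detection, with 8 reads in all 9 libraries together and a mean of 0.0266 CPM per kb.

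**Figure D1:**
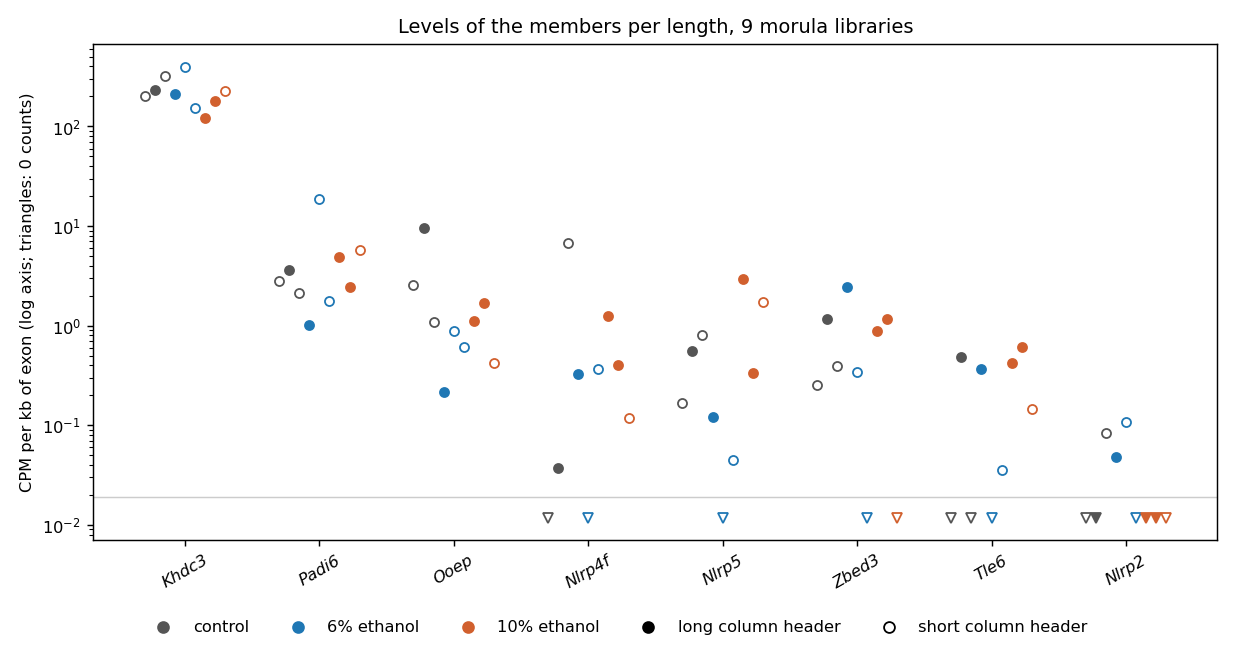
Levels of the 8 genes in each of the 9 libraries, in CPM per kilobase of exon on a log axis, ordered by mean. Colours give the sire treatment, filled symbols the long header form, and triangles below the line mark 0 counts. Khdc3 lies between 122 and 400 CPM per kb, above each of the other 7 genes in each library.

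Khdc3 encodes a KH-domain protein that in mouse oocytes and embryos guards chromosome number. Its level was 414, 480 and 652 CPM in the control libraries, 434, 819 and 316 CPM in the 6% ethanol libraries and 249, 366 and 467 CPM in the 10% ethanol libraries. All 3 groups overlapped, with the highest library and the second lowest both among the 6% ethanol embryos. The group means were 515 ± 123 CPM for control, 523 ± 263 CPM for 6% ethanol and 361 ± 109 CPM for 10% ethanol (SD, n = 3 each). In edgeR's quasi-likelihood test the log2 fold change was 0.02 ± 0.46 (SE) for 6% ethanol against control (adjusted p = 0.996), and its sign turned under several alternatives. It was -0.51 ± 0.46 for 10% ethanol against control (adjusted p = 0.9999) and -0.54 ± 0.46 for 10% against 6% ethanol (adjusted p = 0.823). Without 6% ethanol replicate 2 the value for 10% against 6% ethanol was -0.05. Within header forms, 10% ethanol against control gave -0.65 in the long-header and -0.19 in the short-header libraries. Within the long form, control (control 2) and 6% ethanol (6% ethanol 1) have 1 library each. Within the short form, 10% ethanol has 1 library (10% ethanol 3). Such a library is then assumed to vary like the others.

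The spread of Khdc3 between libraries was close to that of other genes of its abundance, with a coefficient of variation of 0.374 against a median of 0.441 over the 1835 tested genes with a mean of 100 to 1000 CPM. Of those genes, 34.8% varied less. The annotation places 790 of the 2050 exon bases of Khdc3 on the same strand as exons of the gene model Gm20509, which is listed at 0 counts in all 9 files. How the counting dealt with shared bases is not given, so the Khdc3 level carries that uncertainty.

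Nlrp5 encodes MATER, an oocyte protein without which the embryo does not pass early cleavage. Its level was 0.814, 2.70 and 3.94 CPM in the control libraries, 0.591, 0 and 0.219 CPM in the 6% ethanol libraries and 14.2, 1.64 and 8.29 CPM in the 10% ethanol libraries. Every 6% ethanol library was below every control and every 10% ethanol library, while 10% ethanol and control overlapped. The nearest control and 6% ethanol libraries rested on few reads, 10 in control 1 and 14 in 6% ethanol 1, a gap within counting error. The count of 0 in 6% ethanol 2 allows up to 0.571 CPM there, counting error only.

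For 10% against 6% ethanol the log2 fold change of Nlrp5 was 4.72 ± 1.52 (SE), with an unadjusted edgeR p of 0.00864 (rank 72 of 12488 genes) and an adjusted p of 0.806, so the difference did not pass the threshold. In that comparison 1 of the 7 tested members had groups that did not overlap with the 10% ethanol libraries higher, against 6.05% of all tested genes. Within header forms the difference was 3.72 in the long-header and 5.93 in the short-header libraries. Across 18 alternatives it ran from 3.72 to 5.95, with adjusted p-values of at least 0.0768. For 6% ethanol against control it was -3.03 ± 1.42, with an unadjusted edgeR p of 0.0529 and an adjusted p of 0.7998, and with -2.18 and -4.13 within the long-header and short-header libraries. For 10% ethanol against control it was 1.70 ± 1.32 (adjusted p = 0.9999).

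Ooep encodes FLOPED, a KH-domain protein that binds NLRP5 and TLE6 in the mouse complex. Its level was 5.53, 20.7 and 2.34 CPM in the control libraries, 0.464, 1.90 and 1.32 CPM in the 6% ethanol libraries and 2.40, 3.57 and 0.909 CPM in the 10% ethanol libraries. All 6% ethanol libraries were below all controls, and control 2 alone held 52.9% of the CPM summed over the 9 libraries. The nearest control and 6% ethanol libraries held 16 reads in control 3 and 10 in 6% ethanol 2, a gap within counting error. The log2 fold change for 6% ethanol against control was -2.97 ± 1.26 (SE), with an unadjusted edgeR p of 0.0356 and an adjusted p of 0.799. Without control 2 it was -1.71. In the long-header libraries, control 2 alone against 6% ethanol 1 alone, it was -5.46, and in the short-header libraries it was -1.31. For 10% ethanol against control it was -2.05 ± 1.20 (adjusted p = 0.9999), with -0.77 when control 2 was left out. For 10% against 6% ethanol it was 0.93 ± 1.19 (adjusted p = 0.874), with 2.67 in the long-header and -0.80 in the short-header libraries. Ooep shares a stretch of 56 bases with Ugcg transcripts and 1 of 53 bases with Ift81 transcripts at 98% identity or more, so reads from there may be uncertain.

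In 6% ethanol against control, Nlrp5 and Ooep were the 2 of 7 tested members whose groups did not overlap with the ethanol libraries lower. The share over all 12488 tested genes was 4.72%, and for both members the nearest libraries were within counting error. Ooep was the 1 member with an unadjusted p under 0.05, against 6.24% of all tested genes, and 0 members passed the adjusted threshold, against 0% of all tested genes. Of the 7, 3 had positive and 4 negative fold changes, with a median of -0.24 on the log2 scale, against -0.01 over all tested genes. In 10% ethanol against control, 4 were positive and 3 negative, with a median of 0.18 against -0.05. There 0 members had groups apart (8.06% of all tested genes in either direction), 0 had an unadjusted p under 0.05 (2.14%) and 0 passed the adjusted threshold (0%). In 10% against 6% ethanol, 4 were positive and 3 negative, with a median of 0.93 against -0.02, 1 had an unadjusted p under 0.05 (5.33%) and 0 passed the adjusted threshold (0%). DESeq2 and limma voom also gave 0 members an adjusted p under 0.05 in these 3 comparisons. The comparisons share libraries and do not repeat each other.

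**Figure D2:**
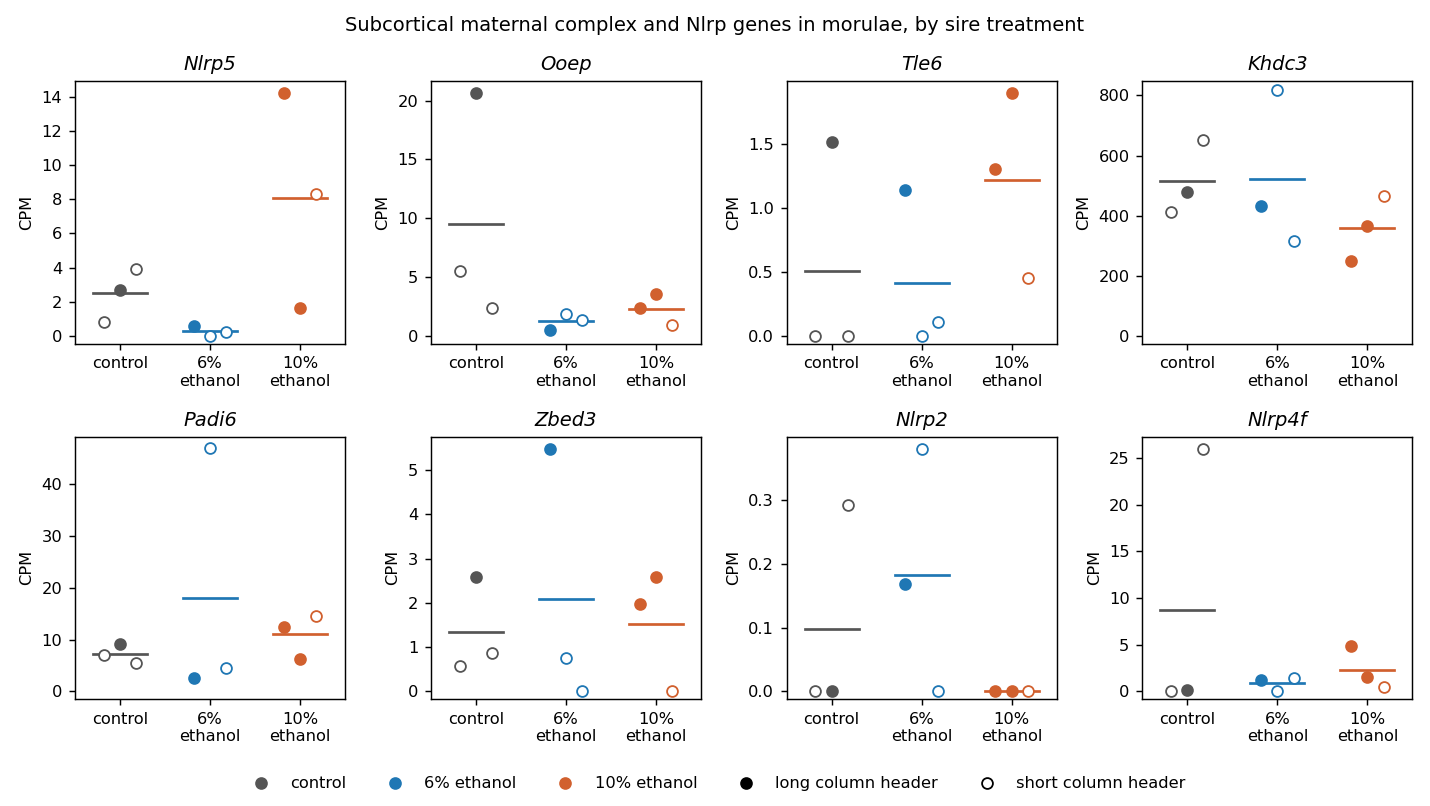
CPM of each of the 8 genes in the 9 libraries, with a linear axis per gene, by sire treatment from control to 10% ethanol. Horizontal lines are group means and filled symbols the long header form. For Nlrp5 and Ooep the 3 libraries of 6% ethanol lie below the 3 controls, and in Nlrp4f 1 control library stands at 26.0 CPM.

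**Figure D3:**
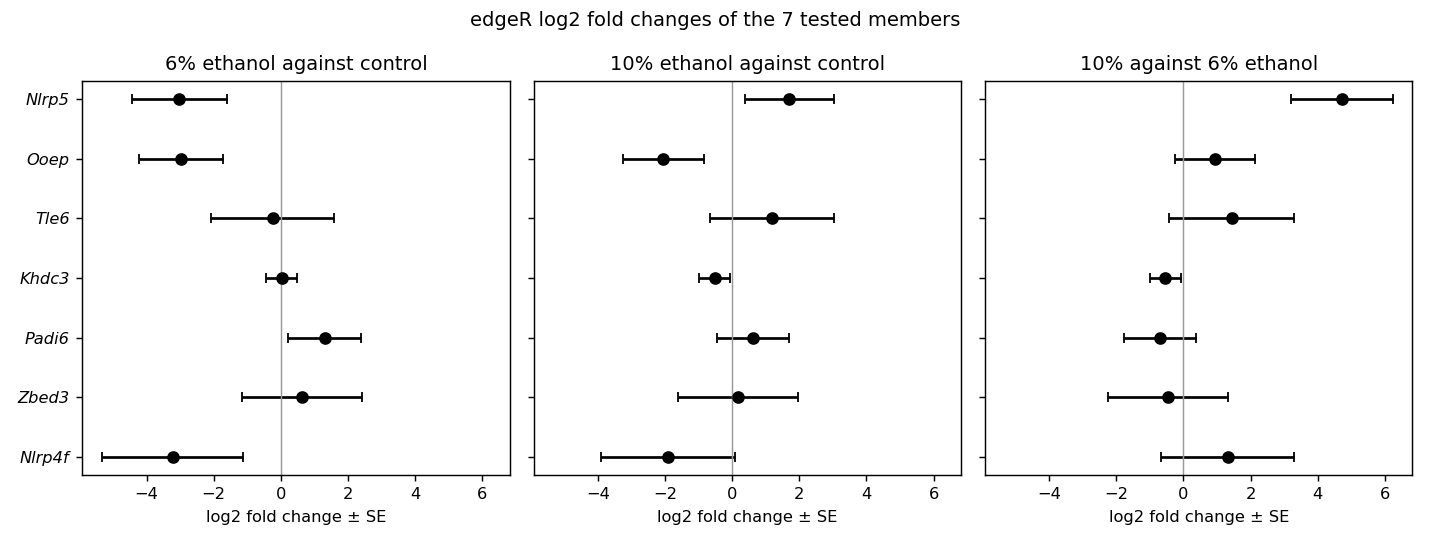
The edgeR log2 fold changes of the 7 tested genes in the 3 comparisons, with bars of 1 SE to each side. Nlrp5 lies at -3.03 for 6% ethanol against control and at 4.72 for 10% against 6% ethanol. No gene passed the adjusted threshold.

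Tle6 is a member of the Groucho family of corepressors and in the mouse egg is tied to the actin-binding protein cofilin. Its level was 0, 1.51 and 0 CPM in the control libraries, 1.14, 0 and 0.110 CPM in the 6% ethanol libraries and 1.30, 1.89 and 0.454 CPM in the 10% ethanol libraries. The groups overlapped, and the 4 highest libraries were those with the long header. Log2 fold changes were -0.24 ± 1.83 (SE) for 6% ethanol against control (adjusted p = 0.989), 1.20 ± 1.84 for 10% ethanol against control (adjusted p = 0.9999) and 1.44 ± 1.86 for 10% against 6% ethanol (adjusted p = 0.875). The 3 counts of 0 allow up to 0.244 CPM in control 1, 0.438 CPM in control 3 and 0.571 CPM in 6% ethanol 2. The other 2 short-header libraries stood at 0.110 and 0.454 CPM.

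Zbed3, a BED zinc-finger protein needed in mouse for an even first division, followed the same libraries. Its level was 0.570, 2.59 and 0.877 CPM in the control libraries, 5.48, 0.761 and 0 CPM in the 6% ethanol libraries and 1.98, 2.59 and 0 CPM in the 10% ethanol libraries. Again the groups overlapped, and the 4 long-header libraries were the highest. Its log2 fold changes were 0.63 ± 1.78 (SE) for 6% ethanol against control (adjusted p = 0.965), 0.18 ± 1.78 for 10% ethanol against control (adjusted p = 0.9999) and -0.46 ± 1.78 for 10% against 6% ethanol (adjusted p = 0.961).

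Tle6 and Zbed3 did not pass the filter in the short-header libraries alone. In the long-header libraries alone, 6% ethanol against control gave -0.40 for Tle6 and 1.08 for Zbed3, and 10% against 6% ethanol gave 0.48 and -1.27.

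With the header form as the comparison, Tle6 ran from 1.14 to 1.89 CPM (median 1.41) in the 4 long-header libraries and from 0 to 0.454 CPM in the 5 short-header libraries, 3 of which were at 0. Zbed3 ran from 1.98 to 5.48 CPM (median 2.59) in long-header libraries and from 0 to 0.877 CPM in short-header libraries, 2 of which were at 0. With group as a term, the log2 difference was 3.77 ± 1.34 (SE) for Tle6, with an unadjusted edgeR p of 0.0159 and an adjusted p of 0.247. It was 3.77 ± 1.51 for Zbed3, with an unadjusted edgeR p of 0.0290 and an adjusted p of 0.286, so both were short of the threshold. These were the 2 of 7 tested members with groups apart and the long-header libraries higher, against 4.28% of all tested genes, and the 2 with an unadjusted p under 0.05, against 14.8%. In that test 0 members passed the adjusted threshold, against 0.104% of all tested genes. The long-header libraries were also the 4 deepest, with totals of 19574710 to 27619281 counts, against 6263465 to 11026334 in the others. The part of depth in the difference was not tested. Khdc3 did not follow the header form, with 249 to 480 CPM in long-header and 316 to 819 CPM in short-header libraries and a log2 difference of -0.38 ± 0.37 (adjusted p = 0.645).

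Padi6, a protein of the peptidylarginine deiminase family needed for the cytoplasmic lattices of the egg, was the next most abundant member. Its level was 7.08, 9.25 and 5.41 CPM in the control libraries, 2.57, 47.0 and 4.50 CPM in the 6% ethanol libraries and 12.5, 6.19 and 14.7 CPM in the 10% ethanol libraries. The other 2 libraries of 6% ethanol were below all controls, and the group mean of 18.02 ± 25.1 CPM (SD, n = 3) was carried by 6% ethanol 2. The log2 fold change was 1.31 ± 1.08 (SE) for 6% ethanol against control (adjusted p = 0.861) and -1.05 when 6% ethanol 2 was left out. Within header forms, 6% ethanol against control gave -1.84 in the long-header and 2.02 in the short-header libraries. For 10% ethanol against control it was 0.61 ± 1.07 (adjusted p = 0.9999). For 10% against 6% ethanol it was -0.69 ± 1.07 (adjusted p = 0.895), and 1.67 without 6% ethanol 2, with 1.85 in the long-header and -0.79 in the short-header libraries. That library was also the one with the highest Khdc3 level, the smallest total and the largest share of tested genes at 0 counts (13.5%), and the part of these in its Padi6 level was not tested.

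Nlrp4f, an NLRP protein of the mouse complex, was low except in 1 library. Its level was 0, 0.144 and 26.0 CPM in the control libraries, 1.27, 0 and 1.43 CPM in the 6% ethanol libraries and 4.84, 1.57 and 0.454 CPM in the 10% ethanol libraries. Control 3 held 72.8% of the CPM summed over the 9 libraries, against a median of 34.2% for the top library over the 4743 tested genes with a mean of 1 to 10 CPM. The log2 fold change was -3.23 ± 2.11 (SE) for 6% ethanol against control (adjusted p = 0.837) and -1.91 ± 1.99 for 10% ethanol against control (adjusted p = 0.9999). Without control 3 the values were 3.39 and 4.73, so that library set the sign of both. Within header forms, 6% ethanol against control gave 3.10 in the long-header and -4.11 in the short-header libraries, and 10% ethanol against control gave 4.42 and -4.79 in those forms. Control 3 is a short-header library. For 10% against 6% ethanol, which does not use the controls' level, it was 1.31 ± 1.97 (adjusted p = 0.892), with 1.32 in the long-header and -0.68 in the short-header libraries.

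Nlrp2, a maternal-effect gene tied in mouse to imprinted methylation, had 2 reads in control, 6 in 6% ethanol and 0 in 10% ethanol embryos, and did not pass the filter on low counts. The 0 reads over the 10% ethanol group allow a level of up to 0.0541 CPM. No fold is given at this depth.

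**Figure D4:**
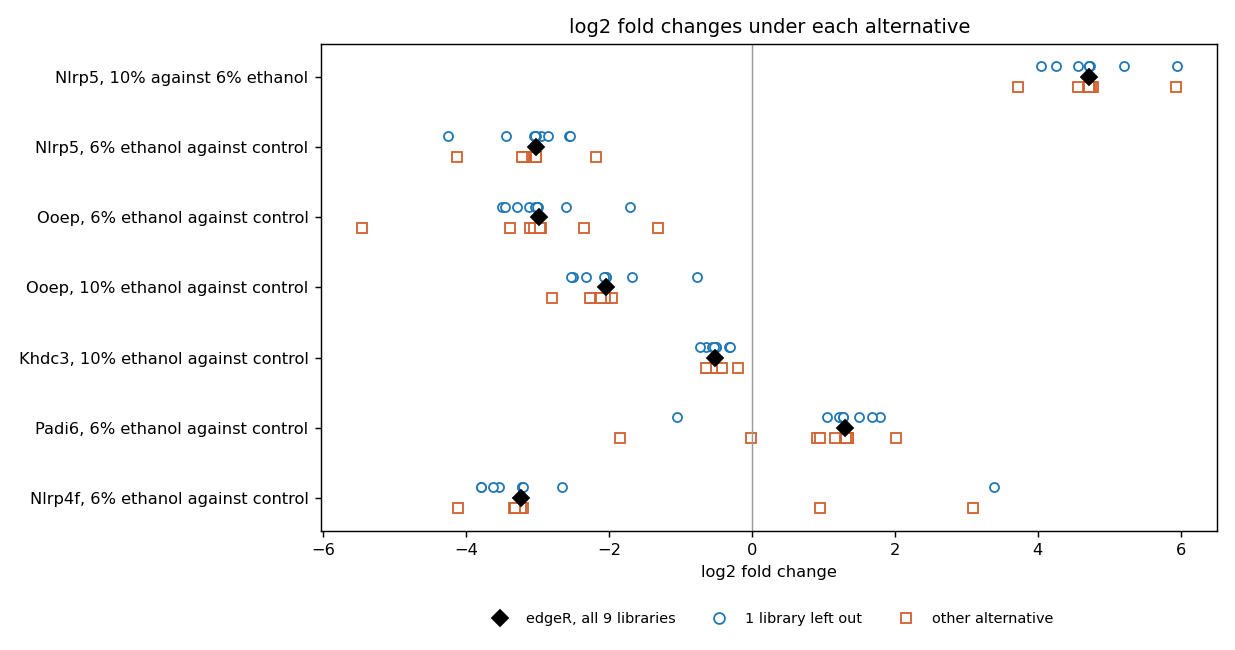
Log2 fold changes of 7 results with all 9 libraries (diamonds), with 1 library left out (circles) and under the other alternatives (squares). Nlrp5 for 10% against 6% ethanol stays between 3.72 and 5.95, while Padi6 and Nlrp4f for 6% ethanol against control fall on both sides of 0.

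The 7 tested members did not share 1 pattern over the 9 libraries. Likeness was measured as the root mean square difference between log2(CPM + 1) profiles, each centred on its own mean. The closest pair of members was Tle6 with Zbed3, at 0.583, followed by Khdc3 with Padi6, at 0.918. The farthest was Padi6 with Nlrp4f, at 2.03. A profile that varies little is close to a flat one, and the spread of the profiles (SD of log2(CPM + 1)) was 0.603 for Tle6, 0.856 for Zbed3, 0.485 for Khdc3, 1.02 for Padi6 and 1.44 for Nlrp4f. The distance of Khdc3 to Padi6 was thus close to the spread of Padi6 alone. That of Tle6 to Zbed3, at 0.583, was below the spread of Zbed3 (0.856), the more variable of the pair, and close to that of Tle6. These profiles share their libraries, depth and scaling, and the values are descriptions.

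Among 6840 tested genes with a mean of 10 CPM or more, the profile nearest to Nlrp5 was that of Mrpl4, a mitochondrial ribosomal protein gene, at 0.438 (median over all candidates 1.49). Mrpl4 had 12.1, 13.9 and 20.3 CPM in control libraries, 10.6, 6.28 and 5.05 CPM in 6% ethanol libraries and 66.9, 23.9 and 36.1 CPM in 10% ethanol libraries. The next was Wdr4, at 0.645. The nearest to Ooep were Zhx3 (0.532) and AW549877 (0.587), both also highest in control 2. For Tle6 they were Prdx6 (0.218) and Psmd13 (0.221), for Zbed3 Eri2 (0.321) and Dpp4 (0.334), and for Khdc3 Mob4 (0.208) and Shcbp1 (0.214). The medians over all candidates were 0.968 for Tle6, 1.13 for Zbed3 and 0.955 for Khdc3. The 1 added before the log damps differences at levels near or under 1 CPM. Tle6 ran from 0 to 1.89 CPM, while Prdx6 ran from 218 to 570 CPM. Padi6 was nearest to Wdr59 (0.406) and Timm8a2 (0.464), which like it peaked in 6% ethanol 2. Nlrp4f was nearest to Pop5 (0.556) and Snu13 (0.603), with Pop5 at 157 CPM in control 3 and 10.4 to 28.8 CPM in the other 8 libraries.

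Of 17 other genes listed with the Nlrp family, among them the more distant NLR gene Nlrx1, 7 passed the filter, Nlrx1 included, and Nlrp4c, Nlrp4e and Nlrp14 had a mean of 10 CPM or more. Nlrp4c averaged 102.5 ± 71.6 CPM in control, 90.7 ± 25.2 CPM in 6% ethanol and 91.2 ± 19.3 CPM in 10% ethanol libraries (SD, n = 3 each), and was thus the most abundant Nlrp gene at 23.6 CPM per kb. Nlrp4e had the largest ratio between its highest and lowest library of the 3, from 0.0844 CPM in 6% ethanol 1 to 125.5 CPM in 6% ethanol 3, and 0.146 to 26.8 CPM within 10% ethanol. Nlrp14, another oocyte gene, averaged 17.8 ± 19.4 CPM in control, 8.67 ± 7.55 CPM in 6% ethanol and 9.83 ± 5.31 CPM in 10% ethanol libraries. The 7 split into 1 positive and 6 negative fold changes for 6% ethanol against control and 4 and 3 for 10% ethanol against control. For 10% against 6% ethanol they split into 6 and 1. The medians were -0.52, 0.32 and 0.84 on the log2 scale, against -0.01, -0.05 and -0.02 over all tested genes. All tested genes split into 6180 and 6308, 5885 and 6603, and 6185 and 6302. In edgeR's test 0 of the 7 passed the adjusted threshold in these comparisons.

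The relatives of Khdc3 and Ooep with KH domains were abundant too. Khdc1a averaged 173 CPM per kb and Dppa5a, a marker of pluripotent cells, 171 CPM per kb, with Khdc1c at 88.4 CPM per kb. Khdc1c was at 132, 376.5 and 306 CPM in 6% ethanol libraries and at 126, 58.9 and 121 CPM in control libraries. The nearest libraries of these groups were close, at 132 and 126 CPM. Its log2 fold change was 1.41 ± 0.55 (SE), with an unadjusted edgeR p of 0.0246 and an adjusted p of 0.799. Khdc1a was at 232.5, 150.2 and 206 CPM in control, 172.8, 544 and 665 CPM in 6% ethanol and 450.0, 240.5 and 434 CPM in 10% ethanol libraries. Its log2 fold change was 1.23 ± 0.53 for 6% ethanol against control (adjusted p = 0.799), where the groups overlapped. For 10% ethanol against control it was 0.93 ± 0.52 (adjusted p = 0.9999). There the groups did not overlap, with the nearest libraries at 240.5 and 232.5 CPM, as for 8.06% of all tested genes in either direction. Khdc1b averaged 7.75 ± 8.40 CPM in control, 12.6 ± 8.28 CPM in 6% ethanol and 20.97 ± 23.0 CPM in 10% ethanol libraries (SD, n = 3 each).

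Among the relatives of Tle6 and Zbed3, Tle4 averaged 114 ± 20.9 CPM in control, 159 ± 46.3 CPM in 6% ethanol and 143 ± 24.0 CPM in 10% ethanol libraries (SD, n = 3 each), well above Tle6 per kilobase (24.3 against 0.231 CPM per kb). Tle1, Tle3 and Zbed4 were the others with a mean of 10 CPM or more, with fold changes of 1.27 ± 0.95, -0.73 ± 0.83 and 0.29 ± 0.60 on the log2 scale (SE) for 6% ethanol against control. Of the 16 listed relatives of the members outside the Nlrp family, 13 passed the filter. For 6% ethanol against control 7 were positive and 6 negative, with a median of 0.29 on the log2 scale against -0.01 over all tested genes. Of the 13, 3 had an unadjusted p under 0.05 there (6.24% of all tested genes), and 0 passed the adjusted threshold in any of the 3 comparisons. The split was 7 and 6 in the other comparisons too, with medians of 0.06 for 10% ethanol against control (-0.05 over all tested genes) and 0.14 for 10% against 6% ethanol (-0.02 over all tested genes).

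**Figure D5:**
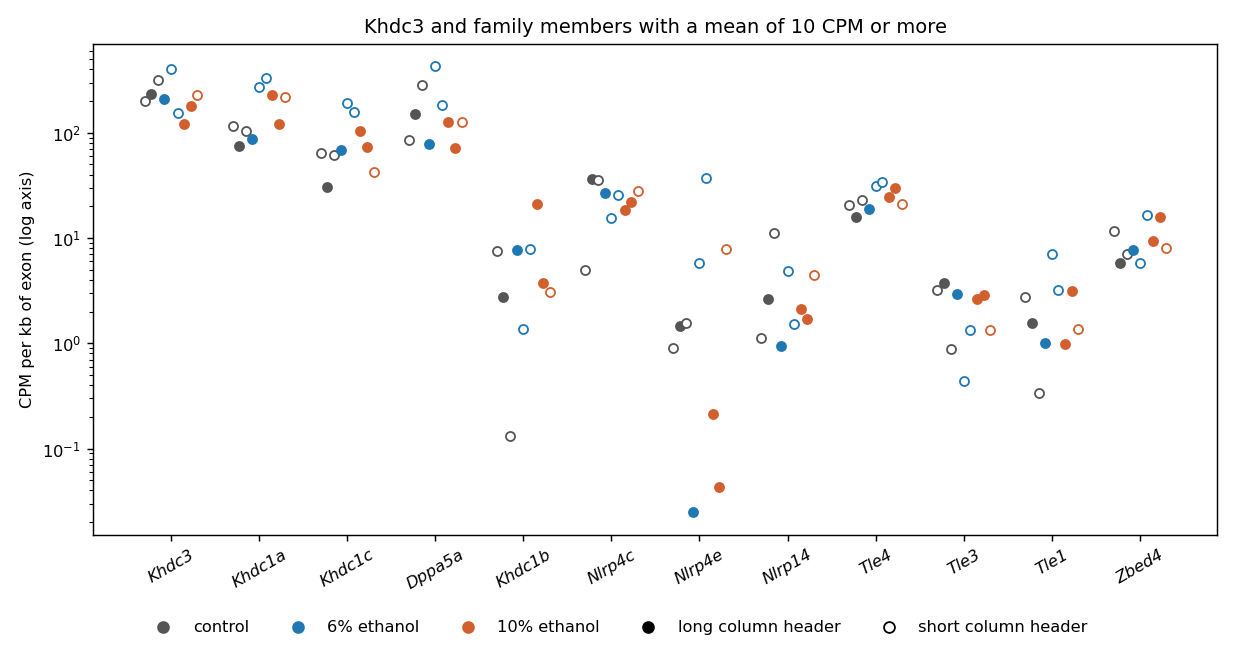
Khdc3 and the relatives of the 8 genes with a mean of 10 CPM or more, in CPM per kilobase of exon on a log axis, in each of the 9 libraries. Colours give the sire treatment and filled symbols the long header form. Khdc1a, Dppa5a and Khdc3 lie highest, and Nlrp4e spans the widest range on the log axis.

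Of 20 other maternal-effect and oocyte genes, 8 passed the filter. Their fold changes split into 5 positive and 3 negative for 6% ethanol against control and 6 and 2 for 10% ethanol against control. For 10% against 6% ethanol the split was 5 and 3. The medians were 0.43, 1.41 and 0.77 on the log2 scale, against -0.01, -0.05 and -0.02 over all tested genes. Dppa3 (STELLA), which protects the maternal genome from demethylation, averaged 1349 ± 785 CPM in control, 2961 ± 1313 CPM in 6% ethanol and 1535 ± 309 CPM in 10% ethanol libraries (SD, n = 3 each). Its log2 fold change was 1.13 ± 0.50 (SE) for 6% ethanol against control, with an unadjusted edgeR p of 0.0421 and an adjusted p of 0.799. Uhrf1, a partner of DNMT1 in maintaining methylation, was at 4.09 to 20.4 CPM in control, 1.33 to 8.23 CPM in 6% ethanol and 6.56 to 14.8 CPM in 10% ethanol libraries. Of 5 genes whose proteins act with the complex or its lattices in the egg, 4 passed the filter, among them Uhrf1 and Nlrp14, which are also in the lists above. All 4 had negative fold changes for 6% ethanol against control (median -1.19, against -0.01 over all tested genes), 1 was positive and 3 negative for 10% ethanol against control (median -0.72, against -0.05), and all 4 were positive for 10% against 6% ethanol (median 0.25, against -0.02). Cfl1, encoding cofilin, averaged 127 ± 5.62 CPM in control, 113.5 ± 56.8 CPM in 6% ethanol and 141 ± 75.9 CPM in 10% ethanol libraries. Dnmt1 averaged 53.3 ± 51.8 CPM in control, 18.5 ± 7.47 CPM in 6% ethanol and 20.4 ± 7.76 CPM in 10% ethanol libraries, with control 3 at 113 CPM. In these lists 0 genes passed the adjusted threshold in any of the 3 comparisons.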

How the data were processed

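Total RNA of the morulae was sequenced. The authors deposited 1 table per library with whole-number counts per gene, obtained with featureCounts on GRCm39 per the submitters' processing notes, where DESeq2 is named as well. RNA STAR alignments are named in 4 column headings, per the file headers. Versions, annotation and strand setting are not given in the sources used here, so counts of overlapping or antisense genes are uncertain.

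From these counts, filterByExpr by group kept 12488 of 53819 rows for edgeR, with TMM factors applied to full library totals. The quasi-likelihood fit used all 9 libraries in 3 groups, and a second fit added the header form. Adjusted p-values (Benjamini-Hochberg, all 12488 genes) were read at 0.05. CPM are on TMM-scaled totals. None of the 36 pairs of libraries matched within sampling noise, with a chi-square of at least 116 for each degree of freedom. A count of 0 is read against 3 counts, which covers counting error only. Nothing says that libraries came from separate sires or dishes, so p-values measure the spread between libraries, which may be technical. Exon lengths are from GENCODE release 21 for mouse, on an older build. So are the exon bases left out of the Khdc3 promoter, which set where its printed stretch begins, and those shared with Gm20509. No other gene coordinates from it are given here.

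The members and lists were chosen with earlier results of these data known. All members are named. Of other families, genes with a mean of 10 CPM or more are named, of each other list the 2 of highest mean CPM, and for each member the 2 genes of most like profile, with predicted symbols left out. Alternatives were RLE scaling, totals alone, no filter, a filter of 10 CPM in 3 libraries, DESeq2, limma voom weighted by library quality, fits of only 2 groups, the header form added or held fixed, and each library left out. The tests were tried on simulated data. Fits ran in R 4.3.3 with edgeR 4.0.16, DESeq2 1.42.0 and limma 3.58.1.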

Additional observations from a re-analysis of the deposited data

How the results depend on the processing

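No member had an adjusted p under 0.05 in any alternative run. Nlrp5 for 10% against 6% ethanol (3.72 to 5.95) kept its direction in each of 18 alternatives. For 6% ethanol against control, Nlrp5 (-4.25 to -2.18) kept it in each of 17 and Ooep (-5.46 to -1.31) in each of 18. Tle6 and Zbed3 between header forms kept theirs in each of 14. These are results whose groups do not overlap, so leaving out 1 library could hardly turn their sign. Leaving out a control left Nlrp5 for 10% against 6% ethanol at 4.72 to 4.73. The count of all genes called, 0 in each group comparison, became 140, 47 and 147 with no filter for 6% ethanol against control, 10% ethanol against control and 10% against 6% ethanol, 31, 10 and 34 with DESeq2, 3, 9 and 4 in long-header libraries alone and 48, 2 and 1 in short-header libraries alone. With 1 library left out it ranged from 0 to 0. Between header forms the count of 13 became 504 with no filter, 23 with the stricter filter, 1027 with DESeq2 and 304 with voom, and 0 to 30 with 1 library left out (0 without control 3, any 6% ethanol library or 10% ethanol 3, and 30 without control 1). The causes were not tested.

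For 6% ethanol against control the sign turned for Khdc3 with totals alone (-0.26), no filter (-0.0505), voom (-0.0622) and long-header libraries alone (-0.14), for Padi6 with voom (-0.0058) and long-header libraries alone (-1.84), for Zbed3 with voom (-1.61) and the header term (-0.48), for Nlrp4f with voom (0.95) and long-header libraries alone (3.10), and for Tle6 with the header term (0.35). For 10% ethanol against control it turned for Zbed3 with totals alone (-0.0176), voom (-0.16), the header term (-2.03) and long-header libraries alone (-0.19), and for Nlrp4f with voom (2.81) and long-header libraries alone (4.42). For 10% against 6% ethanol it turned for Padi6 with voom (0.32) and long-header libraries alone (1.85), for Zbed3 with voom (1.45), and in short-header libraries alone for Ooep (-0.80) and Nlrp4f (-0.68). Between header forms it turned for Nlrp5 with voom (-0.11).

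With 1 library left out, ranges that crossed 0 for 6% ethanol against control were -2.95 to 5.67 for Tle6, -0.45 to 0.24 for Khdc3, -1.05 to 1.79 for Padi6, -1.91 to 1.55 for Zbed3 and -3.80 to 3.39 for Nlrp4f. For 10% ethanol against control they were -0.43 to 1.10 for Zbed3 and -3.05 to 4.73 for Nlrp4f, and for 10% against 6% ethanol -1.19 to 1.67 for Padi6 and -1.07 to 2.09 for Zbed3. Between header forms they were -0.0016 to 2.08 for Ooep and -1.77 to 2.18 for Nlrp4f. No paired analysis was possible because the labels carry no replicate numbers and those used here follow accession order only. Depth limits Nlrp2 in all libraries. The stricter filter kept only Khdc3 and Padi6 of the members.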

Other observations

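Nlrx1, an NLR protein of mitochondria, was picked out after its values were seen and had 1.71, 1.26 and 0.292 CPM in control libraries, 1.94, 0 and 1.10 CPM in 6% ethanol libraries and 3.13, 28.3 and 2.39 CPM in 10% ethanol libraries. All 10% ethanol libraries were above all others, and 10% ethanol 2 held 70.6% of the CPM summed over the 9 libraries. Of all tested genes, 6.05% had 10% ethanol apart from and above 6% ethanol. Against control, 8.06% had groups apart in either direction. The nearest libraries held 21 reads in 10% ethanol 3 and 46 in the deeper 6% ethanol 1, a gap within counting error. Its log2 fold change was 3.42 ± 1.55 (SE) for 10% against 6% ethanol (adjusted p = 0.806 in edgeR's test) and 3.35 ± 1.54 for 10% ethanol against control (adjusted p = 0.9999).

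Tle5, the short relative of Tle6, was likewise picked out after its values were seen. It was at 2.45, 0.381 and 0.878 CPM in 6% ethanol libraries and at 9.93, 24.9 and 0.730 CPM in control libraries, with a log2 fold change of -3.22 ± 1.42 (SE) and an adjusted p of 0.799 in edgeR's test. The groups overlapped, since control 3 was below 2 of the 6% ethanol libraries.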
